A study of Mus musculus with 15 samples.

Results

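The genes described here are 9 genes of the MHC class II pathway, measured in bulk RNA of sorted mouse CD8+ T cells. They were chosen by name, as H2-Aa, H2-Ab1, H2-Eb1, Cd74, H2-DMa, H2-DMb1, Ciita, Ctss and Cst3. All 9 have a row among the 17493 genes of the count tables, and all 9 passed the low-count filter that left 10831 genes for testing. The question put to them is what RNA of other cells, if any, accompanied the T cells before and after culture.

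The T cells were CD8+ OT-I lymphocytes, whose transgenic receptor recognises an ovalbumin peptide on MHC class I. Female mice of the strain OT-1, C57BL/6-Tg(TcraTcrb)1100Mjb/Crl, supplied spleen and lymph nodes, and the labels give no age. Each of 5 groups had 3 libraries: T cells without stimulus at 0 h, T cells after 8 h or 22 h with immunofilaments (IF), and T cells after 8 h or 22 h with dendritic cells (DC). The IF were synthetic filaments bearing interleukin-2 and MHC loaded with SIITFEKL, at a dose of 5 ng/ml. For the DC groups, 20000 Flt-3Ligand dendritic cells that had been pulsed with SIITFEKL shared a well with 50000 T cells. Viable cells that were CD8+ and CD103- were then sorted. All groups therefore shared the OT-I transgene and the sort, and only the DC wells received added antigen-presenting cells. In every group the titles tag the libraries Don1, Don2 and Don3, given here as replicates 1, 2 and 3. The labels do not say what Don stands for, nor that the replicates were separate animals, so p-values measure the spread between these libraries, which may be technical.

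MHC class II molecules carry peptides from the endosomes to the surface of antigen-presenting cells, where CD4 T cells read them. An alpha and a beta chain (H2-Aa and H2-Ab1 for I-A, H2-Eb1 for the beta chain of I-E) pair in the endoplasmic reticulum around the invariant chain Cd74. Cathepsin S (Ctss) trims the invariant chain in the endosome, cystatin C (Cst3) inhibits such cysteine proteases, and the DM protein (H2-DMa with H2-DMb1) exchanges the last invariant chain fragment for a peptide. Ciita is the transactivator that switches on most of these genes. C57BL/6 mice make no I-E alpha chain, so their H2-Eb1 RNA gives no I-E molecule at the surface. Dendritic cells, B cells and macrophages are the main class II cells of the mouse, and mouse T cells are generally described as not making class II. Some mouse dendritic cells carry CD8 alpha or CD103, the proteins used in the sort.

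H2-Aa, H2-Ab1, H2-Eb1, H2-DMa and H2-DMb1 lie together in the MHC on chromosome 17. By GENCODE vM21 (GRCm38, the same assembly as mm10), H2-Aa spans chr17:34282744-34287823 on the minus strand. H2-Ab1 spans chr17:34257689-34269419 and H2-Eb1 spans chr17:34305867-34316674, both on the plus strand. Promoters driven by Ciita carry an X box and a Y box, bound by the RFX and NF-Y factors to which Ciita attaches. The 150 bases before the RefSeq start (GRCm38.p6) were read for 6 of the 9 genes. H2-Ab1, Cd74 and Ciita had no entry. The promoters of H2-Aa and H2-Eb1 are shown because they hold both boxes and end where the GENCODE gene starts, and that of Ctss because it does the same and holds neither box, each 5′ to 3′ on the strand of its gene with the boxes in capitals.
H2-Aa, chr17:34287824-34287973, minus strand: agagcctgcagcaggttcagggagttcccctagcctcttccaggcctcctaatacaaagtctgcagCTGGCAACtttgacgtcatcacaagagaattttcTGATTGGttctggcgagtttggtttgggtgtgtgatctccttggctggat
H2-Eb1, chr17:34305717-34305866, plus strand: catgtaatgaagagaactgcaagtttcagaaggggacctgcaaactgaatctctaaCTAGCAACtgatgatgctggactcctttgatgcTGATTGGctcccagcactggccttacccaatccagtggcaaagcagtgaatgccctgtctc
Ctss, chr3:95526636-95526785, plus strand: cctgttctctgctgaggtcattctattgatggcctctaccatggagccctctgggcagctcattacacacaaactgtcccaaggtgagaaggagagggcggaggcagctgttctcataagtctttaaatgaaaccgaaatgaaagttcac
The letters searched were CTNGNAAC for the X box core and TGATTGG for the Y box core, on both strands. The pair was counted where the X core came first and the Y core followed within 60 bases on the strand of the gene. H2-Aa held CTGGCAAC and then TGATTGG after 26 bases. H2-Eb1 held CTAGCAAC and TGATTGG with 25 bases between them, and H2-DMb1 held CTAGTAAC and TGATTGG with 26. The H2-DMb1 window is not shown, since GENCODE starts the gene earlier than RefSeq and places 119 of the 150 bases, both boxes among them, inside it. H2-DMa, Ctss and Cst3 held neither core in these windows, and those of H2-DMa and Cst3 lie wholly inside the GENCODE gene. Of 32851 promoter entries of the same length, 6.79% held the X core, 5.71% the Y core and 0.0517% (17 entries) the ordered pair. The letters were chosen with these promoters in view, so the shares are a description of the windows.

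Library totals ran from 2892874 counts (IF 8 h replicate 2) to 19806730 counts (IF 22 h replicate 3). Levels are normalised read counts (CPM, scaled by TMM), and 1 count was worth 0.0510 to 0.332 CPM. T cell markers were present in all libraries: Cd3e stood between 474 and 1696 CPM and Cd8a between 419 and 999 CPM, and Cd4 was at 0 in 14 of the 15 libraries. The T cell list (8 of 11 with a row) summed to 9988 to 10846 CPM at 0 h, 5101 to 5303 CPM at IF 8 h, 4672 to 5528 CPM at DC 8 h, 6198 to 7185 CPM at IF 22 h and 5048 to 6320 CPM at DC 22 h. IF 22 h replicates 2 and 3 stood apart in mitochondrial ribosomal RNA, with 0.179% and 0.146% of their counts against 1.82% to 4.49% in the other libraries. The calls of class II genes and of the other named genes at IF 22 h are therefore also given without them, where replicate 1 alone stands for the group and is assumed to vary like the others.

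The chains and the invariant chain were present in every library, highest in unstimulated and DC 8 h cells and lowest in IF 8 h cells. Their summed level (H2-Aa, H2-Ab1, H2-Eb1 and Cd74) was 708 ± 402 CPM (SD, n = 3) at 0 h, 198 ± 129 CPM at IF 8 h and 720.2 ± 152 CPM at DC 8 h. At 22 h it was 345 ± 86.2 CPM with IF and 374 ± 94.6 CPM with DC. No library gave these genes more than 0.101% of its counts. In bulk RNA, fewer cells that make class II and less class II RNA in each of them cannot be told apart.

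**Figure D1:**
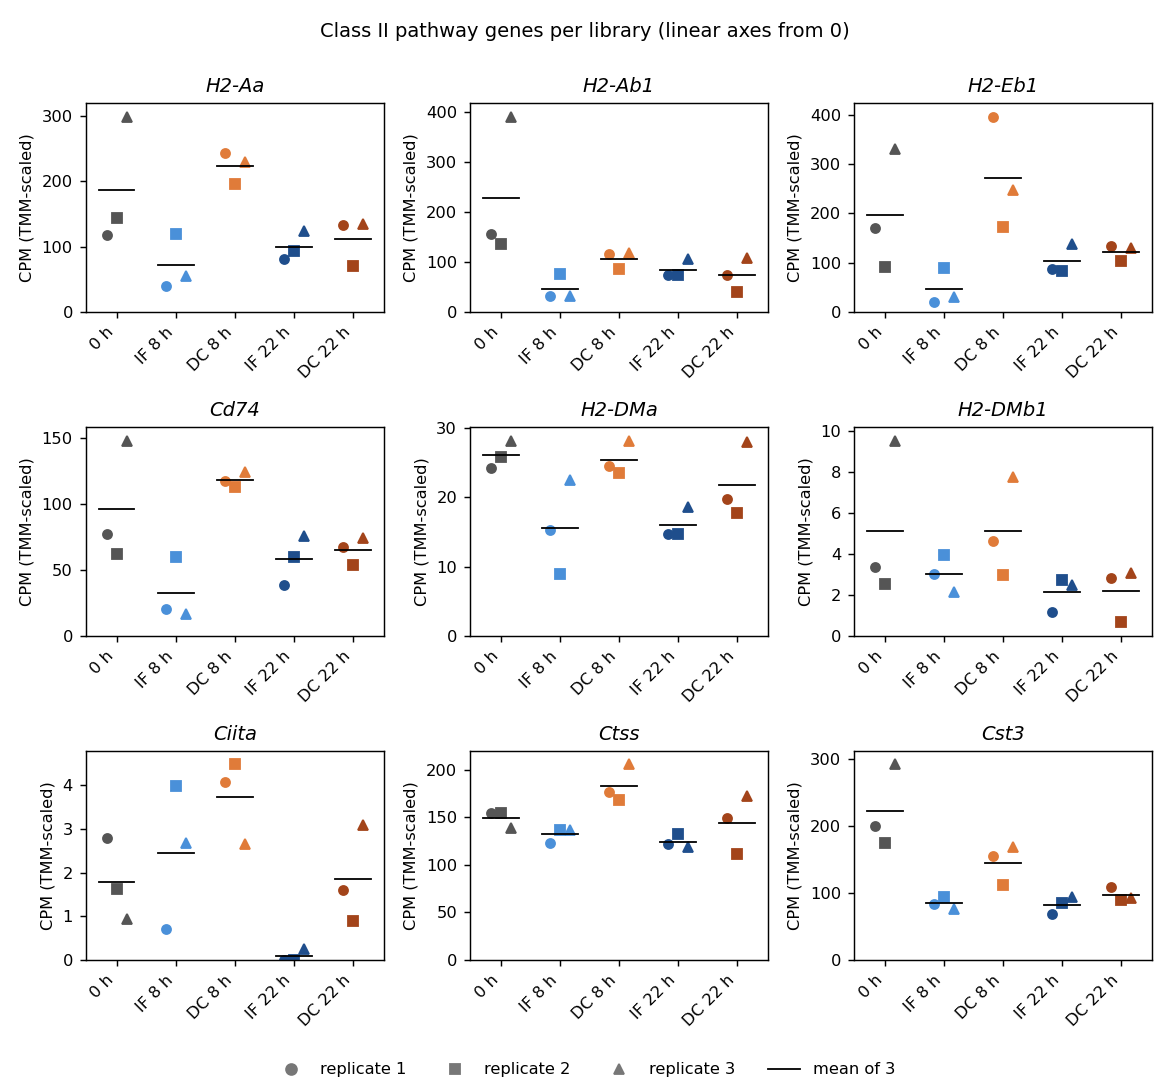
Level of each of the 9 genes in every library (vertical axis, TMM-scaled CPM on a linear axis from 0) by group (horizontal axis). Symbols are replicates and lines are means of 3 libraries. H2-Aa, H2-Ab1, H2-Eb1 and Cd74 are highest in replicate 3 at 0 h or in the DC 8 h libraries, and Ciita lies between 0 and 0.255 CPM at IF 22 h.

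H2-Aa, the alpha chain of I-A, stood at 118, 143 and 299 CPM in unstimulated replicates 1, 2 and 3. It was at 39.96, 119 and 54.9 CPM in IF 8 h and at 244, 197 and 229.8 CPM in DC 8 h. After 22 h the values were 80.8, 94.2 and 124 CPM with IF and 133, 70.2 and 134 CPM with DC. Unstimulated replicate 3 was the highest of all 15 libraries, and IF 8 h replicate 2 overlapped the unstimulated range. DC 8 h had the highest mean, followed by 0 h, DC 22 h, IF 22 h and IF 8 h, and every neighbouring pair in this order overlapped.

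H2-Ab1, the beta chain that pairs with H2-Aa, stood at 156, 137 and 391 CPM at 0 h. It was at 31.8, 76.6 and 32.7 CPM in IF 8 h and at 116, 86.4 and 117 CPM in DC 8 h. The 22 h libraries held 73.8, 74.2 and 106 CPM with IF and 74.7, 39.9 and 108 CPM with DC. All 3 unstimulated libraries lay above all 12 stimulated ones. Among the stimulated groups, ordered DC 8 h, IF 22 h, DC 22 h and IF 8 h by their means, each neighbouring pair overlapped.

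H2-Eb1, the beta chain of I-E, stood at 170.1, 90.9 and 331 CPM at 0 h. It was at 19.4, 90.2 and 31.3 CPM in IF 8 h and at 396, 173 and 247 CPM in DC 8 h. At 22 h it was at 87.0, 84.3 and 138 CPM with IF and at 135, 103 and 129 CPM with DC. The DC 8 h and 0 h libraries overlapped, and all 3 DC 8 h libraries exceeded all IF 8 h libraries. Its means, like those of Cd74, had the order DC 8 h, 0 h, DC 22 h, IF 22 h and IF 8 h, with overlap between every neighbouring pair.

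Cd74, the invariant chain, encoded on chromosome 18, stood at 77.1, 62.4 and 148 CPM at 0 h. It was at 20.5, 60.0 and 16.6 CPM in IF 8 h and at 117, 113 and 124 CPM in DC 8 h, the group with the smallest relative spread of this gene (a coefficient of variation of 4.86%). After 22 h the values were 38.2, 59.6 and 75.8 CPM with IF and 67.5, 53.8 and 74.3 CPM with DC. IF 8 h replicate 2, at 60.0 CPM, came close to the lowest unstimulated library.

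After 8 h with IF, 5 of the 9 genes fell below the unstimulated level at an adjusted p under 0.05 (edgeR's quasi-likelihood test with Benjamini-Hochberg adjustment over all genes tested). In the same comparison 4.72% of all genes fell, and 7.76% changed in either direction. On the log2 scale H2-Ab1 fell by 2.29 ± 0.44 (SE, adjusted p = 0.00423), to 0.204 of the unstimulated level. H2-Eb1 fell by 2.09 ± 0.50 (adjusted p = 0.0184), Cd74 fell by 1.58 ± 0.41 (adjusted p = 0.0266) and H2-Aa fell by 1.40 ± 0.39 (adjusted p = 0.0378). The fifth was Cst3, described with the proteases. T cell markers were lower beside them: 6 of 8 were called lower at IF 8 h, among them Thy1 (−1.51 ± 0.13, adjusted p = 2.4e-06), Cd8b1 (−1.33 ± 0.16, adjusted p = 9.69e-05) and Cd8a (−1.06 ± 0.13, adjusted p = 9.53e-05). At DC 8 h 7 of 8 were lower, and 5 of 8 at IF 22 h and at DC 22 h. Of the 5 at IF 22 h only Thy1 (−0.92, adjusted p = 0.0314) passed without replicates 2 and 3 of that group. The part of this in the class II values was not tested. The median log2 fold change of the 9 genes was −1.39, against 0.02 over all genes tested.

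The calls at IF 8 h rest unevenly on single libraries. Without unstimulated replicate 3, H2-Ab1 kept its call (−1.66, adjusted p = 0.0253), whereas H2-Aa (−0.89, adjusted p = 0.20), H2-Eb1 (−1.50, adjusted p = 0.102) and Cd74 (−1.13, adjusted p = 0.138) lost it. The same 3 lost it without IF 8 h replicate 1, where H2-Aa was at −1.11, H2-Eb1 at −1.71 and Cd74 at −1.33. They lost it also without IF 8 h replicate 3, at −1.24, −1.87 and −1.27 in that order, and H2-Aa was at −1.56 with an adjusted p of 0.0528 without unstimulated replicate 2. With the replicate number as a block in the model H2-Aa was at −1.33 (adjusted p = 0.0506) and the other 4 calls were kept. Scaling by library size alone likewise ended only the call of H2-Aa (−1.15, adjusted p = 0.0697). Without IF 8 h replicate 2, the library with the most class II RNA of its group, all 4 kept their calls and H2-Eb1 stood at −2.97 (adjusted p = 0.00282).

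After 8 h with DC, none of the 9 genes passed the threshold against 0 h with edgeR, where 6.82% of all genes did. DESeq2 called 1, Cst3, beside 1175 of all genes. Unadjusted p-values under 0.05 were found for 2 of the 9 (20.9% of all genes), H2-Ab1 (−1.10 ± 0.41, adjusted p = 0.13) and Cst3 (−0.61 ± 0.21, adjusted p = 0.0954), both below 0. The other chains and Cd74 had higher means than at 0 h, with overlapping libraries. The comparisons of the 4 stimulated groups with 0 h share the same 3 unstimulated libraries.

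Set side by side at 8 h, H2-Eb1 and Cd74 were lower with IF than with DC. H2-Eb1 was lower with IF by −2.56 ± 0.51 on the log2 scale (adjusted p = 0.0286), or 0.17 of the DC level, and Cd74 by −1.89 ± 0.41 (adjusted p = 0.0426). These 2 of 9 genes compare with 0.434% of all genes lower with IF and 0.665% called in either direction. H2-Aa (−1.66 ± 0.39, adjusted p = 0.0638) and H2-Ab1 (−1.19 ± 0.42, adjusted p = 0.355) did not pass the threshold. In all, 7 of the 9 genes had an unadjusted p under 0.05, against 8.27% of all genes, and all 9 log2 fold changes were below 0.

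With the replicate block neither call between IF and DC at 8 h passed, H2-Eb1 at −2.52 and Cd74 at −1.91, each with an adjusted p of 0.0545. Both were also lost without IF 8 h replicate 1 (H2-Eb1 −2.18, Cd74 −1.64), IF 8 h replicate 3 (−2.34 and −1.58), DC 8 h replicate 1 (−2.18 and −1.89) or DC 8 h replicate 3 (−2.63 and −1.86). Without DC 8 h replicate 2 H2-Eb1 alone was called (−2.80) and Cd74 stood at −1.93 with an adjusted p of 0.0976. Without IF 8 h replicate 2, H2-Aa joined them (−2.24, adjusted p = 0.0169).

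Between IF and DC at 22 h no chain was called, nor was Cd74, with log2 fold changes from −0.25 to 0.19. Against 0 h, DC 22 h cells had less H2-Ab1 (−1.61 ± 0.42, adjusted p = 0.0255), and the call was lost without unstimulated replicate 3 (−0.96, adjusted p = 0.184), DC 22 h replicate 1 (−1.61, adjusted p = 0.0768) or DC 22 h replicate 2 (−1.29, adjusted p = 0.0989). With Cst3 this made 2 of 9 genes lower, beside 4.35% of all genes lower and 7.76% in either direction. For IF 22 h, H2-Ab1 stood at −1.43 ± 0.42 (adjusted p = 0.0524) and H2-Aa at −0.90 ± 0.38 (adjusted p = 0.183). H2-Ab1 passed at IF 22 h with DESeq2 (adjusted p = 0.00864), DESeq2 size factors (adjusted p = 0.0496), a fit of both groups alone (adjusted p = 0.038), no low-count filter (adjusted p = 4.76e-07) or without unstimulated replicate 2 (adjusted p = 0.0471), at −1.41 to −1.69, and not in the other alternatives. Without unstimulated replicate 3 it stood at −0.79 (adjusted p = 0.307), and without IF 22 h replicates 2 and 3 at −1.62 (adjusted p = 0.366).

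Within a stimulus, the change from 8 h to 22 h ran in opposite directions in the values for the chains. From IF 8 h to IF 22 h H2-Eb1 stood at 1.16 ± 0.49 (adjusted p = 0.279) and Cd74 at 0.87 ± 0.40 (adjusted p = 0.326). From DC 8 h to DC 22 h H2-Aa stood at −0.99 ± 0.38 (adjusted p = 0.378), H2-Eb1 at −1.15 ± 0.48 (adjusted p = 0.449) and Cd74 at −0.86 ± 0.39 (adjusted p = 0.528). In the model of all groups none of the 9 genes was called by edgeR in either comparison, beside 1.12% and 0.48% of all genes, and an unadjusted p under 0.05 was found for 3 of 9 with IF (15% of all genes) and 4 of 9 with DC (9.03%). DESeq2 called 1 with IF, Ciita, and 0 with DC, beside 366 and 210 of all genes. Without IF 8 h replicate 2, the rise of Cd74 with IF was 1.64 (adjusted p = 0.0491).

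The DC libraries of a shared number deviated together from their group means in all 3 pairs, at r of 0.116, 0.399 and 0.238 for numbers 1, 2 and 3. Among libraries of different numbers, DC 8 h replicate 3 and DC 22 h replicate 1 gave 0.117, above the pair numbered 1. DC 8 h replicate 1 and DC 22 h replicate 3 gave 0.107, somewhat below it. The other 4 pairs of different numbers lay between −0.307 and −0.171. Since every same-numbered pair was above 0.1, the change with time was also fitted in the DC groups alone with the number as a block. In that fit, added after the data were seen, 3 of the 9 genes were lower at 22 h, beside 0.619% of all genes lower and 1.63% called in either direction. They were H2-Aa (−1.05 ± 0.16, adjusted p = 0.0152), H2-Eb1 (−1.09 ± 0.16, adjusted p = 0.0152) and Cd74 (−0.88 ± 0.14, adjusted p = 0.0162). For each of them every DC 22 h library lay below every DC 8 h library, so any pairing gives 3 of 3 lower. The pairs were chosen from correlations in these same libraries. All 3 calls were lost without the pair numbered 1, where H2-Aa stood at −1.14 (adjusted p = 0.089), H2-Eb1 at −0.85 (adjusted p = 0.126) and Cd74 at −0.91 (adjusted p = 0.136). All 3 were kept without the pair numbered 2 or the pair numbered 3. The block in the model of all groups called none of them.

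The interaction asked whether the difference between IF and DC itself changed from 8 h to 22 h. It was 2.31 ± 0.69 for H2-Eb1 (adjusted p = 0.442), 1.72 ± 0.56 for Cd74 (adjusted p = 0.466), 1.48 ± 0.54 for H2-Aa (adjusted p = 0.533) and 1.38 ± 0.59 for H2-Ab1 (adjusted p = 0.576). None of the 9 passed with edgeR, nor with DESeq2, and 5 had an unadjusted p under 0.05. Among all genes edgeR called 0%, DESeq2 called 40 genes, and 7.92% had an unadjusted p under 0.05. Without the low-count filter edgeR called 4 of the 9, H2-Eb1 (2.33, adjusted p = 4.61e-08), Cd74 (1.74, adjusted p = 0.000387), H2-Aa (1.498, adjusted p = 0.00136) and H2-Ab1 (1.39, adjusted p = 0.00637), so the call of the interaction depends on the filter. The estimates moved little, from 2.31 to 2.33 for H2-Eb1, while its SE went from 0.69 to 0.334. Over all genes, no alternative other than left-out libraries called more than 155.

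**Figure D2:**
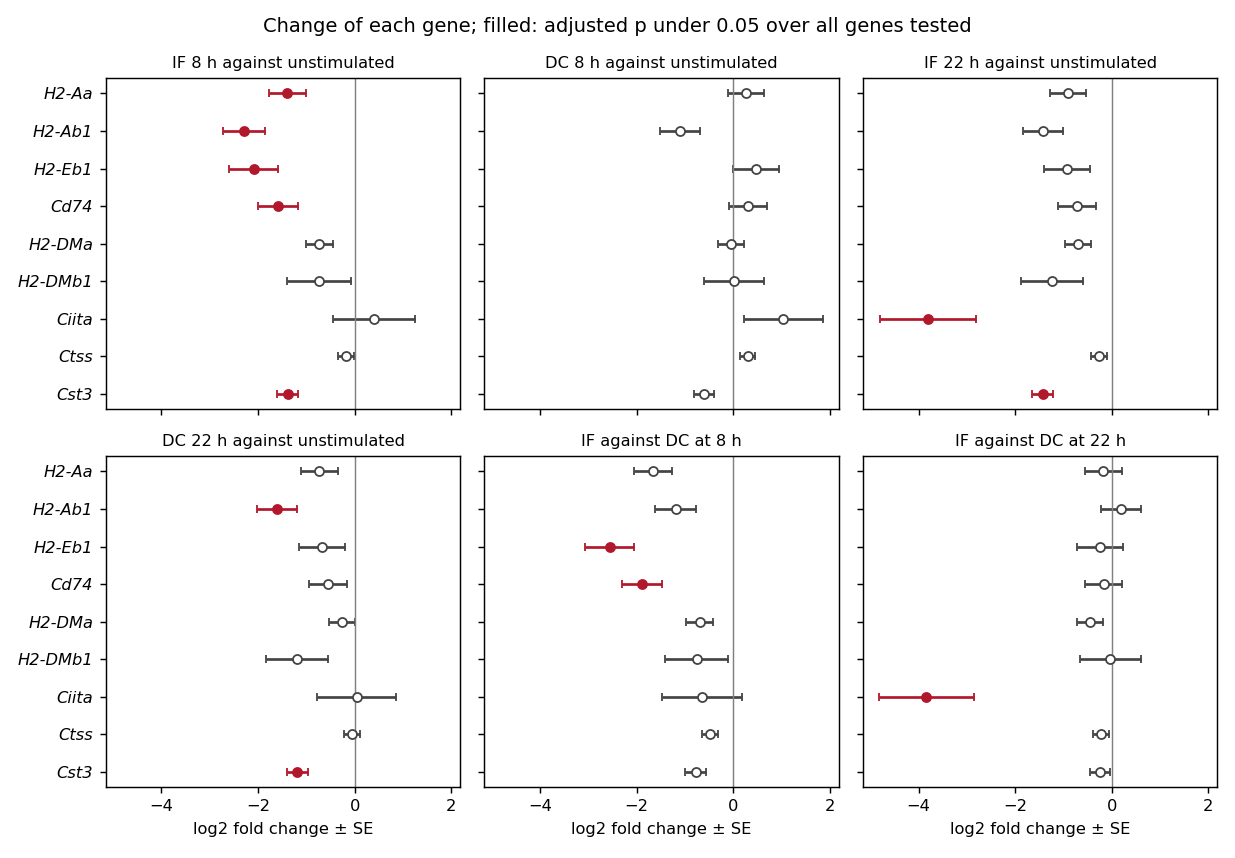
Log2 fold change with its standard error (horizontal axis) of each gene (vertical axis) in 6 comparisons, from the model over 15 libraries. Filled points have an adjusted p under 0.05 over all 10831 genes. At IF 8 h against unstimulated the chains, Cd74 and Cst3 are filled at −1.39 to −2.29, and at IF against DC at 8 h H2-Eb1 and Cd74 are filled at −2.56 and −1.89.

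The mix of class II transcripts was not the same in all libraries. The count of H2-Ab1 per count of H2-Aa is a ratio within a library, which scaling does not touch. It was 1.32, 0.956 and 1.31 in unstimulated replicates 1, 2 and 3. It was 0.795, 0.642 and 0.595 in IF 8 h and 0.475, 0.439 and 0.511 in DC 8 h. At 22 h it was 0.913, 0.788 and 0.852 with IF and 0.563, 0.569 and 0.807 with DC. Every unstimulated library lay above every stimulated one, and every DC 8 h library lay below all the others.

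The ratio of H2-Eb1 to H2-Ab1 was 1.09, 0.664 and 0.845 at 0 h, 0.612, 1.18 and 0.959 in IF 8 h and 3.42, 2.00 and 2.11 in DC 8 h. At 22 h it was 1.18, 1.14 and 1.30 with IF and 1.80, 2.58 and 1.19 with DC. The DC 8 h libraries exceeded all libraries without DC, and DC 22 h overlapped IF 22 h through its replicate 3. The ratio of Cd74 to H2-Aa, in contrast, had group means between 0.44 and 0.609, with overlapping libraries. These ratios were picked after their values had been seen, so they are a description with no test. Exact binomial intervals (Clopper-Pearson, 95%) cover counting error only: for H2-Ab1 per H2-Aa they run from 1.20 to 1.45 in unstimulated replicate 1 and from 0.443 to 0.510 in DC 8 h replicate 1.

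**Figure D3:**
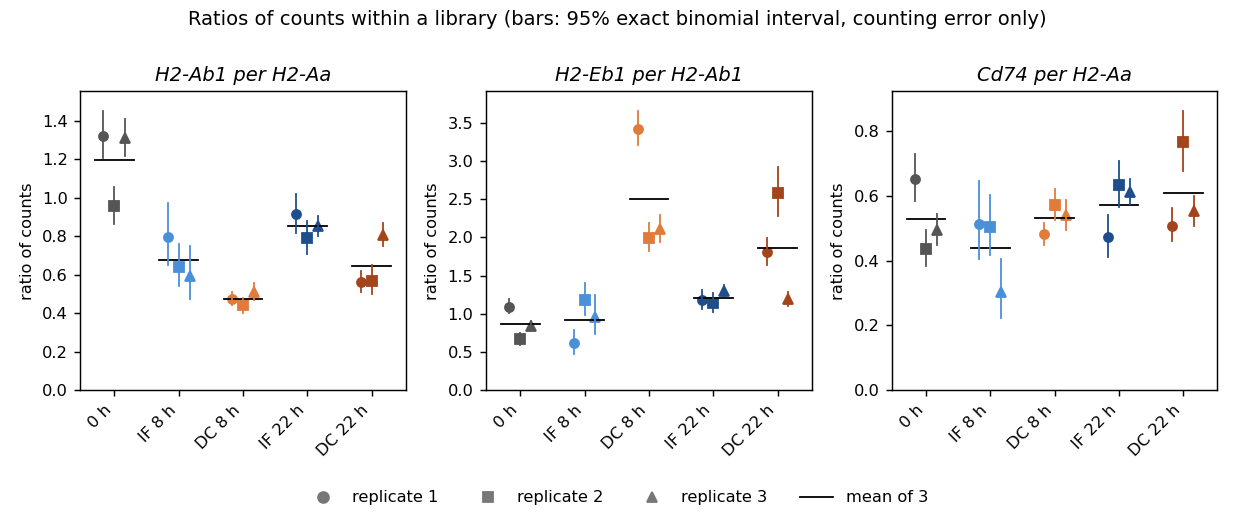
Ratio of the counts of a pair of class II genes within each library (vertical axes, linear from 0) by group, with 95% exact binomial intervals for counting error as bars and means of 3 libraries as lines. H2-Ab1 per H2-Aa is highest at 0 h (0.956 to 1.32) and lowest at DC 8 h (0.439 to 0.511), while Cd74 per H2-Aa overlaps between the groups.

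No comparison called a DM gene. H2-DMa (chr17:34119541-34139101, plus strand) stood at 24.2, 25.8 and 28.2 CPM at 0 h, at 15.3, 8.95 and 22.5 CPM in IF 8 h and at 24.6, 23.5 and 28.2 CPM in DC 8 h. The 22 h libraries held 14.6, 14.7 and 18.6 CPM with IF and 19.8, 17.7 and 27.9 CPM with DC. Both IF groups lay below all unstimulated libraries, by −0.73 ± 0.28 at 8 h (adjusted p = 0.127) and −0.70 ± 0.27 at 22 h (adjusted p = 0.145), and neither was called. Its exons share bases with Brd2 on the opposite strand. The use of strand in counting is not given in the sources used here, so reads of both genes cannot be told apart.

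H2-DMb1 (chr17:34153072-34160230, plus strand) was near the limit of counting, with 23, 14 and 41 counts at 0 h, 17, 12 and 8 in IF 8 h and 47, 24 and 53 in DC 8 h. It had 10, 23 and 49 counts in IF 22 h and 25, 6 and 36 in DC 22 h. Mean levels ran from 2.15 ± 0.837 CPM (SD, n = 3; IF 22 h) to 5.15 ± 3.83 CPM (0 h), every neighbouring pair of groups overlapped, and no comparison was called. H2-DMb1 shares 24.0% of the 60-base words in the last 500 bases of its transcripts with its near copy H2-DMb2, so its counts are uncertain. H2-DMb2 itself had between 0 and 6 counts in each library. The other 8 genes shared none of these words with another gene.

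Ciita (chr16:10480059-10528418, plus strand), the class II transactivator, was scarce in every group and almost absent from the counts at IF 22 h. It had 19, 9 and 4 counts at 0 h, 4, 12 and 10 in IF 8 h and 41, 36 and 18 in DC 8 h. At 22 h it had 0, 0 and 5 counts with IF and 14, 8 and 36 with DC. The counts of 0 allow up to 0.357 and 0.359 CPM in IF 22 h replicates 1 and 2 (3 counts per library, for counting error only), and the deepest library of the study held the 5 counts. Means were 1.78 ± 0.939 CPM at 0 h, 2.46 ± 1.64 CPM at IF 8 h, 3.72 ± 0.959 CPM at DC 8 h and 1.85 ± 1.12 CPM at DC 22 h, with overlapping neighbours, and all IF 22 h libraries lay below all others.

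Ciita was lower at IF 22 h than at 0 h by −3.80 ± 0.99 (adjusted p = 0.0316) and lower than at DC 22 h by −3.84 ± 0.98 (adjusted p = 0.0483). In the first comparison Ciita and Cst3 made 2 of 9 genes lower, beside 3.44% of all genes lower and 6.08% in either direction. In the second Ciita was the only one of the 9 called, beside 1.2% lower and 2.43% in either direction. With so few counts the fitted sizes depend on the prior count of 0.125 and are no bounds. Between IF 8 h and IF 22 h it stood at −4.19 ± 1.01 (adjusted p = 0.0581). Its exons share bases with Dexi on the opposite strand.

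Neither call of Ciita held in every left-out library. Against 0 h it was lost without unstimulated replicate 1 (−3.32, adjusted p = 0.113), unstimulated replicate 2 (−3.86, adjusted p = 0.068), IF 22 h replicate 1 (−3.40, adjusted p = 0.0609) or IF 22 h replicate 2 (−3.41, adjusted p = 0.109). Against DC 22 h it was lost without IF 22 h replicate 1 (−3.45), 2 (−3.45) or 3 (−6.75) and without DC 22 h replicate 1 (−3.94) or 3 (−3.26), at adjusted p-values of 0.051 to 0.196, and with the replicate block (−3.90, adjusted p = 0.0719). Counts thinned to the smallest library gave neither call, with adjusted p-values of 0.0725 against 0 h and 0.196 against DC 22 h. With IF 22 h replicates 2 and 3 both left out, the lone library had no count, and the adjusted p was 0.167 against 0 h and 0.382 against DC 22 h, where the lone library is assumed to vary like the other groups.

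Ctss (chr3:95526786-95556403, plus strand), the protease that trims the invariant chain, stayed between 111 and 206 CPM. It stood at 154, 155 and 139 CPM at 0 h, at 123, 137 and 137 CPM in IF 8 h and at 176, 168 and 206 CPM in DC 8 h. At 22 h it was at 122, 132 and 119 CPM with IF and at 149.7, 111 and 172 CPM with DC. The DC 8 h libraries lay above all unstimulated ones, and the other neighbours overlapped. No comparison called Ctss. Its lowest unadjusted p was between IF and DC at 8 h (−0.47 ± 0.17, adjusted p = 0.338).

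Cst3 (chr2:148871722-148875692, minus strand), the inhibitor of cysteine proteases and an abundant transcript of conventional dendritic cells, fell after IF at both times and after DC at 22 h. It stood at 199, 174 and 291 CPM at 0 h, at 83.1, 94.5 and 76.4 CPM in IF 8 h and at 155, 112 and 169 CPM in DC 8 h. After 22 h the values were 67.8, 84.5 and 94.0 CPM with IF and 109, 89.7 and 92.7 CPM with DC. All unstimulated libraries lay above all 12 stimulated ones, and all DC 8 h libraries lay above those of the other stimulated groups. On the log2 scale Cst3 fell by 1.39 ± 0.21 at IF 8 h (adjusted p = 0.000769), by 1.43 ± 0.21 at IF 22 h (adjusted p = 0.00063) and by 1.19 ± 0.21 at DC 22 h (adjusted p = 0.00236). These 3 calls were kept in every alternative run and without any single library. Between IF and DC at 8 h Cst3 stood at −0.78 ± 0.21 (adjusted p = 0.138).

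Of 30 other symbols listed for the class II pathway, in which March1, March8 and the I-E alpha gene each appear under an old and a new symbol (chains, DO and DM subunits, X and Y box factors, Ciita regulators, endosomal enzymes and turnover), 25 had a row and 22 were tested. Against 0 h, 4 fell and 0 rose at IF 8 h, 2 fell and 2 rose at DC 8 h, 2 fell at IF 22 h, and 1 fell and 2 rose at DC 22 h. Over all genes 7.76%, 6.82%, 6.08% and 7.76% were called in these comparisons, in the same order. Between IF and DC, 2 were lower with IF at 8 h and 3 at 22 h, beside 0.665% and 2.43% of all genes called. The median log2 fold change of those tested was −0.06 at IF 8 h and 0.26 at DC 8 h, against 0.02 and 0.04 over all genes.

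Ctsb (cathepsin B) fell in all 4 comparisons with 0 h, which share their controls, by 1.16 ± 0.17 at IF 8 h (adjusted p = 0.000482) and by 0.95 ± 0.17 at DC 8 h (adjusted p = 0.00243). Ctsd (cathepsin D) fell by 1.25 ± 0.29 at IF 8 h (adjusted p = 0.014) and by 0.99 ± 0.28 at DC 8 h (adjusted p = 0.042). Ifi30, the thiol reductase that unfolds antigens in the endosome, fell by 2.57 ± 0.46 at IF 8 h (adjusted p = 0.00263). It stood at 19.4, 18.6 and 40.7 CPM at 0 h and at 3.03, 5.30 and 5.09 CPM in IF 8 h. H2-Oa, a chain of the DM inhibitor DO, fell by 0.89 ± 0.26 at IF 8 h (adjusted p = 0.0443).

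Genes higher with DC included Cd83, a surface protein of mature dendritic cells that also rises in activated lymphocytes, and, at 8 h, Ctsh (cathepsin H). Cd83 stood at 3.82, 2.89 and 6.75 CPM at 0 h, at 28.4, 65.6 and 26.6 CPM in DC 8 h and at 9.99, 2.65 and 5.89 CPM in IF 8 h. It was lower with IF than with DC by −2.64 ± 0.52 at 8 h (adjusted p = 0.0252) and −2.36 ± 0.51 at 22 h (adjusted p = 0.0201). Ctsh was at 12.0, 9.19 and 12.6 CPM in DC 8 h and at 0.178, 0.663 and 0.536 CPM in IF 8 h, a difference of −4.70 ± 0.85 (adjusted p = 0.0135). It then rose from IF 8 h to IF 22 h by 3.73 ± 0.85 (adjusted p = 0.0446), to 2.38, 7.77 and 6.99 CPM. The DC 22 h libraries held 8.08, 4.42 and 4.02 CPM of Ctsh. Irf1, an interferon-response factor that acts upstream of Ciita in many cells, was lower with IF than with DC at 22 h by −0.86 ± 0.21 (adjusted p = 0.0369). Without IF 22 h replicates 2 and 3 no call of these genes with IF 22 h passed: Ctsb against 0 h was at −0.81 (adjusted p = 0.185), Cd83 and Irf1 against DC 22 h at −3.64 (adjusted p = 0.147) and −0.97 (adjusted p = 0.515), and Ctsh against IF 8 h at 2.46 (adjusted p = 0.861).

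Genes listed as markers of other cells moved beside the class II genes, and their part in the class II results was not tested. Bulk RNA does not tell which cells made the RNA of a listed gene, T cells included. Genes of the conventional dendritic cell list (13 of 13 with a row) summed to 119.8 to 129 CPM at 0 h, 37.0 to 59.3 CPM at IF 8 h and 49.9 to 68.9 CPM at DC 8 h. At 22 h they summed to 37.9 to 62.9 CPM with IF and 22.0 to 59.6 CPM with DC. Itgae, which encodes the sorting marker CD103, had the highest mean of this list over the 15 libraries, at 32.1 to 59.8 CPM at 0 h, 10.7 to 19.98 CPM at IF 8 h, 27.0 to 42.9 CPM at DC 8 h, 10.2 to 19.4 CPM at IF 22 h and 9.84 to 41.7 CPM at DC 22 h. It was lower than at 0 h by −1.68 ± 0.44 at IF 8 h (adjusted p = 0.0288) and −1.86 ± 0.43 at IF 22 h (adjusted p = 0.0174), or −1.38 (adjusted p = 0.47) without IF 22 h replicates 2 and 3. The other 12 genes summed to 60.5 to 96.8 CPM at 0 h, 21.8 to 43.1 CPM at IF 8 h, 22.5 to 27.7 CPM at DC 8 h, 24.9 to 52.7 CPM at IF 22 h and 12.2 to 17.9 CPM at DC 22 h.

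Single dendritic cell markers had different patterns over the groups. Xcr1, a chemokine receptor of the cross-presenting subset, stood at 9.54, 17.2 and 45.6 CPM at 0 h, and no stimulated library exceeded 9.38 CPM. It was lower than at 0 h by −4.13 ± 0.97 at IF 22 h (adjusted p = 0.0184) and −6.79 ± 1.20 at DC 22 h (adjusted p = 0.00223). Itgax (CD11c) ran from 12.8 to 16.3 CPM at 0 h, 11.1 to 15.3 CPM at IF 8 h, 3.82 to 6.93 CPM at DC 8 h, 14.0 to 31.8 CPM at IF 22 h and 2.05 to 7.69 CPM at DC 22 h. It was lower at DC 22 h than at 0 h by −1.85 ± 0.47 (adjusted p = 0.0218) and higher with IF than with DC at 22 h by 2.32 ± 0.46 (adjusted p = 0.0124). Without IF 22 h replicates 2 and 3 the latter was 1.83 (adjusted p = 0.44), and Xcr1 against 0 h was −5.29 (adjusted p = 0.148). Flt3 ran from 0.181 to 2.09 CPM at 0 h, 0 to 2.32 CPM at IF 8 h, 3.27 to 5.58 CPM at DC 8 h, 1.79 to 6.94 CPM at IF 22 h and 2.39 to 3.59 CPM at DC 22 h, and no comparison called it. The defining dendritic cell factor Zbtb46 was at 0 in all unstimulated and IF 8 h libraries and at 1.17 to 2.28 CPM in DC 8 h. At 22 h it was at 0.120 to 0.408 CPM with IF and 0.442 to 0.684 CPM with DC.

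Genes of the mature dendritic cell list (9 of 9 with a row) summed to 71.4 to 86.4 CPM at 0 h, 51.2 to 74.6 CPM at IF 8 h, 247 to 279.8 CPM at DC 8 h, 149 to 239 CPM at IF 22 h and 188 to 283 CPM at DC 22 h. Serpinb6b, a serine protease inhibitor, had the highest mean of this list over the 15 libraries, although Fscn1 exceeded it at DC 8 h. It stood at 66.1 to 75.6 CPM at 0 h and 139 to 192 CPM at IF 22 h, where it was higher than at 0 h by 1.29 ± 0.26 (adjusted p = 0.00656), or 0.97 (adjusted p = 0.283) without replicates 2 and 3. The other 8 genes summed to 2.35 to 10.7 CPM at 0 h, 1.61 to 9.61 CPM at IF 8 h, 149 to 208 CPM at DC 8 h, 9.52 to 51.6 CPM at IF 22 h and 97.4 to 127 CPM at DC 22 h.

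Fscn1 (fascin), an actin bundler of mature dendritic cells, stood at 0, 0.181 and 6.75 CPM at 0 h and at 0.535, 0.663 and 0.268 CPM in IF 8 h. It was at 168, 132 and 126 CPM in DC 8 h, 94.8, 87.6 and 72.9 CPM in DC 22 h and 5.83, 21.5 and 43.8 CPM in IF 22 h. All DC libraries exceeded all others, and no dendritic cells had been added to the IF wells. Ccl22, a chemokine of mature dendritic cells, stood at 10.3 to 18.2 CPM in DC 8 h and 6.41 to 11.1 CPM in DC 22 h, against at most 2.98 CPM in any other library. Ccl17 was at 0 in all unstimulated libraries and at most 2.65 CPM in any other. Il12b was at 0 in all IF 8 h libraries, at 1.32 to 4.47 CPM in DC 8 h and at 0 to 1.93 CPM in DC 22 h. In unstimulated and IF 22 h libraries Il12b reached at most 0.408 CPM.

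In DC 8 h cells Fscn1 and Ccl22 were higher than at 0 h, by 6.16 ± 0.85 (adjusted p = 3e-04) and 7.58 ± 0.96 (adjusted p = 0.000157). There H2-Ab1 lay below every unstimulated library, and the means of H2-Aa, H2-Eb1 and Cd74 were above those at 0 h, with overlapping libraries. Fscn1 and Ccl22 were also called higher than at 0 h in IF cells, Ccl22 at IF 8 h (4.02 ± 1.19, adjusted p = 0.0493) and IF 22 h (4.01 ± 1.11, adjusted p = 0.042) and Fscn1 at IF 22 h (3.60 ± 0.82, adjusted p = 0.0158). Without IF 22 h replicates 2 and 3, which held most of the Fscn1 counts of that group, Fscn1 was at 1.56 (adjusted p = 0.613) and Ccl22 at 3.25 (adjusted p = 0.456). Ccl22 had 1 count in all unstimulated libraries together, so its fitted sizes depend on the prior count and are no bounds. Unstimulated replicate 3, with the most class II RNA at 0 h, also had the most Xcr1 (45.6 CPM), Fscn1 (6.75 CPM) and S100a8 (3.72 CPM, a neutrophil gene) of its group. The same library had the least Naaa (17.5 CPM) and Itgae (32.1 CPM) and a middle level of Itgax (14.4 CPM), and the conventional dendritic cell sum spanned only 119.8 to 129 CPM at 0 h. These genes were picked after their values were seen.

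**Figure D4:**
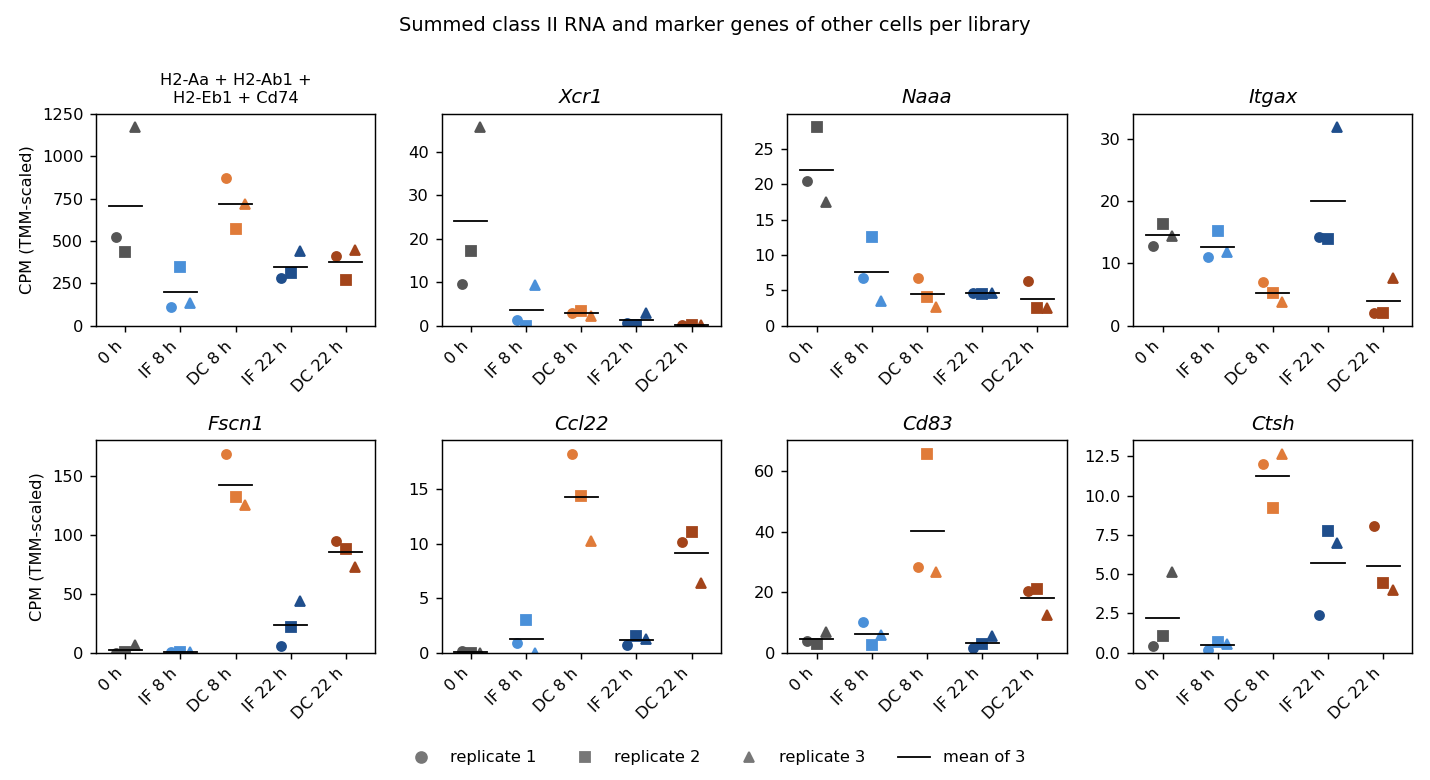
Summed level of H2-Aa, H2-Ab1, H2-Eb1 and Cd74 (first panel) and levels of 7 other genes per library (vertical axes, TMM-scaled CPM, linear from 0) by group, with means of 3 libraries as lines. Xcr1 and Naaa are highest at 0 h, where Xcr1 reaches 45.6 CPM, and Fscn1, Ccl22 and Cd83 are highest in the DC groups.

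B cell genes (12 of 16 with a row) summed to 35.8 to 44.0 CPM at 0 h, 41.3 to 71.6 CPM at IF 8 h, 13.9 to 31.3 CPM at DC 8 h, 78.4 to 135 CPM at IF 22 h and 12.7 to 35.6 CPM at DC 22 h. The IF 22 h sum was mostly Pou2af1, a coactivator named after its values were seen, at 45.9, 83.7 and 83.4 CPM. Ms4a1 (CD20) was at 0 in all IF 8 h libraries. Cd79a stayed at or under 6.75 CPM in every library and Cd79b at or under 19.3 CPM.

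The remaining lists held few abundant markers. In the monocyte and macrophage list (11 of 13 with a row) sums ran from 10.9 to 30.5 CPM, Lyz2 was at 0 in all unstimulated libraries and C1qa at 0 in all stimulated ones. Neutrophil genes (7 of 8) summed to at most 13.6 CPM, with S100a8, S100a9, Retnlg and Csf3r at 0 in all 22 h libraries. Erythroid genes (2 of 6) summed to at most 1.40 CPM. Plasmacytoid genes (7 of 7) summed to 178 to 405 CPM, chiefly from Ccr9, at 129 to 312 CPM, which T cells also express, and Pacsin1, at 28.4 to 73.7 CPM, while Siglech stayed at or under 4.44 CPM. CD4 T cell genes (4 of 4) summed to at most 10.3 CPM and NK cell genes (4 of 4) to at most 25.7 CPM. The stromal and endothelial list (6 of 6) summed to 85.5 to 180.3 CPM, nearly all of it Pecam1, and Col1a1 stayed at or under 1.76 CPM.

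Across the 15 libraries the chains and Cd74 moved together. Pearson's r of log2 CPM was 0.948 between H2-Eb1 and Cd74, 0.941 between H2-Aa and Cd74 and 0.847 between H2-Aa and H2-Ab1. With the group means taken out, these were 0.831, 0.867 and 0.938. H2-DMa did not follow them within groups, at −0.135 with H2-Aa. Fscn1 gave 0.084 with H2-Ab1, 0.451 with H2-Aa, 0.553 with H2-Eb1 and 0.548 with Cd74 over all libraries. Within groups these were 0.617, 0.642, 0.537 and 0.658. All of these share libraries and depth, and they are descriptions with no p.

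The tested genes most like the mean log2 CPM of the chains and Cd74 over 15 libraries were Traf6 (r = 0.918), C2cd2 (0.872), Morn1 (0.844), Mt1 (0.818), Ccnd1 (0.813), 2900002K06Rik (0.808), Ncf4 (0.807) and Ostf1 (0.805). For single genes, the closest were C2cd2 for H2-Aa (0.887), Ascc1 for H2-Ab1 (0.856), Traf6 for H2-Eb1 (0.886) and Cd74 (0.912), and Oas2 for H2-DMa (0.871). They were Zc3hav1 for H2-DMb1 (0.868), Satb1 for Ciita (0.847), Ly6e for Ctss (0.864) and Lamtor2 for Cst3 (0.936). Wdfy4, a gene of cross-presenting dendritic cells, was the third closest to H2-Ab1 (0.856), and it stood at 4.16 to 7.78 CPM at 0 h and at most 2.08 CPM in any stimulated library.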

How the data were processed

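An adapted CEL-seq protocol, which primes at the poly(A) end with a barcode, was used for 15 bulk libraries, per the labels' protocols. Whole-number counts per gene were deposited by the authors without normalization. BWA and the build mm10 are named in the submitters' processing notes, with no version. The counting program, annotation, use of strand and use of molecular identifiers are not given in the sources used here, so intervals and limits cover counting error only.

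The analysis used edgeR 4.0.16 (limma 3.58.1, R 4.3.3): filterByExpr (minimum count 10, minimum total 15), TMM scaling and 1 quasi-likelihood model with 5 group means and no replicate block. Tests were two-sided, adjusted by Benjamini-Hochberg over 10831 genes within each comparison, at 0.05. Fold changes used a prior count of 0.125, and correlations used log2 CPM with a prior count of 2. The fit was tested on simulated data. Library totals were 2892874 to 19806730. DESeq2 1.42.0, other scalings and filters, thinning, a replicate block and left-out libraries were alternatives, and leaving out IF 22 h replicates 2 and 3 together, and a fit of the DC groups alone with the replicate block, were chosen after seeing the data. The titles give the replicate number after the tag Don, which the labels do not explain. Deviations of same-numbered libraries correlated above 0.1 in all 3 pairs only between DC 8 h and DC 22 h (0.116 to 0.399), and the numbers were taken as pairs there alone.

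The members and gene lists were chosen with earlier results of these data known. Named were all 9 members, at most 6 called pathway genes per comparison by p, the first 4 markers of each list, and the 8 genes most correlated with the chains and Cd74 (3 per single member). Naaa, Wdfy4, Itgae, Serpinb6b, Pou2af1, Ccr9, Pacsin1, Pecam1, Thy1, Cd8b1, Irf8 and some values of pathway genes that were not called fall outside this rule and were named after their values were seen. Some genes under the rule are not reported here.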

Additional observations from a re-analysis of the deposited data

How the results depend on the processing

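No direction reversed among the 9 genes' fold changes with an unadjusted p under 0.05: 465 values kept their side of the threshold, 36 crossed to called and 42 lost the call. Without a low-count filter the members called were 1 (DC 8 h), 5 (IF 22 h) and 4 (DC 22 h) against 0 h, 5 between IF and DC at 8 h, 4 between IF 22 h and IF 8 h, 3 between DC 22 h and DC 8 h and 4 in the interaction. DESeq2 gave 1 at DC 8 h, 4 between IF and DC at 8 h and 1 between IF 22 h and IF 8 h. Over all genes it called 1175, 195 and 366 in that order. Library size alone gave 1 at DC 8 h, beside 1079 of all genes. It also put the median over all genes, on the log2 scale, at 0.26 (IF 8 h), 0.30 (DC 8 h), 0.22 (IF 22 h) and 0.37 (DC 22 h), against 0.02, 0.04, 0.01 and 0.04 under TMM, with 76.3%, 79.6%, 74.1% and 85.4% of calls higher against 39.2%, 40.3%, 43.3% and 43.9% under TMM. A mean of at least 10 CPM left 1 at IF 22 h and 0 between IF and DC at 22 h, as did thinning (1 and 0) and leaving out IF 22 h replicates 2 and 3 together (1 and 0). A fit of the compared groups alone gave 1 at DC 22 h, 1 between IF and DC at 8 h and 0 at 22 h. The cause of these moves was not tested. Leaving out 1 library at a time gave 2 to 5 for IF 8 h, 1 to 2 for IF 22 h, 1 to 2 for DC 22 h, 0 to 3 between IF and DC at 8 h, 0 to 1 at 22 h and 0 to 1 between IF 22 h and IF 8 h.

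With the replicate block, 0 members were called between IF and DC at 8 h and 0 at 22 h, and 4 at IF 8 h. No other count of members differed by over 1.5 times. In the DC groups alone the block gave 3 between DC 22 h and DC 8 h, and 0 to 4 when a pair was left out. The titles give the number after the tag Don, which the labels do not explain, and 4 of 30 same-numbered pairs had deviations correlated above 0.1 (r from −0.189 to 0.399), against 5 of 60 pairs with different numbers. Of the 4, 3 were the pairs of DC 8 h with DC 22 h. Over all genes, edgeR's calls and their range over the alternatives were 840 (419 to 1299) at IF 8 h, 739 (404 to 1175) at DC 8 h, 658 (99 to 1101) at IF 22 h, 840 (454 to 1586) at DC 22 h, 72 (27 to 215) between IF and DC at 8 h, 263 (8 to 759) at 22 h, 121 (0 to 541) between IF 22 h and IF 8 h, 52 (0 to 272) between DC 22 h and DC 8 h and 0 (0 to 279) in the interaction. Depth limits H2-DMb1 and Ciita most, with at most 53 and 41 counts in a library.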

Other observations

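The libraries labelled replicate 2 of both DC groups stood apart from the other DC libraries in several listed genes, which were picked after their values had been seen. Irf8, a transcription factor of dendritic cells, B cells and activated T cells, was at 262 CPM in DC 8 h replicate 2 against 74.4 and 60.2 CPM in replicates 1 and 3. In DC 22 h it was at 519 CPM in replicate 2 against 46.7 and 27.3 CPM. H2-Ob, a chain of the DM inhibitor DO, ran the other way, at 35.1 against 91.4 and 97.3 CPM in DC 8 h and at 37.3 against 113 and 139.8 CPM in DC 22 h. Ctsd was at 46.3 against 72.9 and 76.2 CPM in DC 8 h and at 39.4 against 82.1 and 99.7 CPM in DC 22 h. Itgae, which encodes CD103, was at 27.0 against 41.2 and 42.9 CPM and at 9.84 against 37.9 and 41.7 CPM in the same order. Both libraries are titled Don2, and their deviations from the group means correlated at 0.399, the highest of all same-numbered pairs. The labels do not say whether the tag means a shared animal.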
